A study of Mus musculus with 6 samples.

Results

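The proteasome genes described here are the mouse genes whose symbol runs from Psma to Psmg followed by a number. A symbol match on the deposited table found 48 such genes among its 54532 gene IDs, and 46 of the 48 passed the filter for testing, a mean of at least 1 FPKM over the 6 libraries. FPKM are fragments scaled to transcript length and to library size, so levels are per length. The length matched the mean over a gene's annotated transcripts, so comparisons between genes depend on that annotation. The libraries hold RNA of CD11c-positive cells, labelled dendritic cells, sorted by flow cytometry from tumours on day 28. All tumours grew in C57Bl/6 mice from a BRAFV600EPTEN-/- melanoma line kept under puromycin and implanted with matrigel. In 3 libraries the implanted cells carried an active Gli2, a transcription factor of the Hedgehog pathway (Gli2CA), and in the other 3 a non-targeted control (NTC). The construct was thus in the implanted cells. The sources used here give neither the age of the mice nor whether each library came from its own mouse. The p-values therefore measure only how far these samples spread, which may be technical. Libraries are numbered as in the sample titles: NTC 1, 2 and 3 are columns 1, 3 and 4 of the control in the table.

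The proteasome is the barrel-shaped protease that breaks down ubiquitin-tagged proteins in every cell. Its core (20S) is built of rings of alpha subunits (Psma genes) around rings of beta subunits (Psmb genes), and the catalytic sites lie in the beta subunits Psmb5, Psmb6 and Psmb7. Interferon gamma induces replacements for these, Psmb8 (LMP7), Psmb9 (LMP2) and Psmb10 (MECL-1), which give the immunoproteasome, and dendritic cells express them without stimulation. A cap (19S) of ATPases (Psmc genes) and other subunits (Psmd genes) recognises and unfolds substrates. The PA28 activator of Psme1 and Psme2 is an alternative end piece that is also induced by interferon gamma, and the peptides released feed MHC class I through the transporter of Tap1 and Tap2.

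Promoter stretches are shown for the immune subunit gene and the PA28 gene whose groups did not overlap (Psmb8, Psme1), for Psmb9, whose RefSeq start faces that of Tap1, and for the constitutive Psmb5 as a contrast. They are the RefSeq sequences of GRCm38.p6, read 5′ to 3′ on the gene's own strand, with positions counted from 1 at the RefSeq start of each gene. Gene positions elsewhere are those of GENCODE, whose gene bounds begin earlier: the RefSeq start lies 474 bases inside the GENCODE gene for Psmb8, 371 for Psme1, 434 for Psmb9 and 27 for Psmb5. Bases shown before the start therefore lie partly or wholly inside the gene as GENCODE draws it. Psmb8, on the plus strand at chr17:34198045-34198224, is shown from -150 to 30, with a GAS-type match (TTCNNNGAA, the gamma-activated site pattern) in capitals. Psme1, on the plus strand at chr14:55578344-55578523, is shown over the same positions, with an ISRE-type match (GAAA, any 2 bases, GAAA, the pattern of interferon regulatory factors) read on the other strand, at 10 to 19, in capitals. Psmb5, on the minus strand at chr14:54617966-54618145, is likewise shown from -150 to 30, with an antioxidant response core (TGACNNNGC, the pattern of Nfe2l1 and its relatives) in capitals. For Psmb9, on the minus strand at chr17:34187331-34187555, the stretch is the 225 bases between its RefSeq start and that of Tap1 on the other strand, with a CCAAT box read on the other strand in capitals. In GENCODE the genes Psmb9 and Tap1 overlap.
Psmb8: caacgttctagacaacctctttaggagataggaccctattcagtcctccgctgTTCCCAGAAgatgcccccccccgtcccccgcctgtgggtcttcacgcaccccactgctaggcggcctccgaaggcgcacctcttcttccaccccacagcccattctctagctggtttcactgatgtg
Psme1: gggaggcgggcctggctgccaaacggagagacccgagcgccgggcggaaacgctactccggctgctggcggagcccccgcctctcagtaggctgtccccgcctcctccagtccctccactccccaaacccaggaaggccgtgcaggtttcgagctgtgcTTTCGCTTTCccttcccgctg
Psmb9: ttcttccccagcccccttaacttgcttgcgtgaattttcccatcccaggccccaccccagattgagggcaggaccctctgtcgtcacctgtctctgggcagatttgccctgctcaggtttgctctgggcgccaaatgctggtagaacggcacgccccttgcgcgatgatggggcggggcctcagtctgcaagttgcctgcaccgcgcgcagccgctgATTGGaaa
Psmb5: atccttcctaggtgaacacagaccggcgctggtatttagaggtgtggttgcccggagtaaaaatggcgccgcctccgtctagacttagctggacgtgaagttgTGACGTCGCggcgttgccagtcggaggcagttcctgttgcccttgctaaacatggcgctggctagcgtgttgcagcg

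Over windows of 250 bases before to 50 after the start, on both strands, 40 of the 48 genes had a promoter entry, and Psmb1, Psmb2, Psmb7, Psmc3, Psmd3, Psmd7, Psma8 and Psmg2 had none. The ISRE pattern stood in the windows of 5 of them (Psmb3, Psmd4, Psmd9, Psme1 and Psmg4) and in 3.44% of all 32851 windows. The GAS pattern stood in those of 3 (Psmb8, Psmd2 and Psmg1) and in 8.3% of all windows. The antioxidant core stood in those of 6, among them Psmb5 and Psmb6, and in 12.4% of all windows, and CCAAT in those of 14 and in 37.4% of all windows. No match of one pattern overlapped a match of another. These are matches of letters and no evidence of binding.

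The libraries are described first where they touch the results. Fragments recovered from the FPKM came to 18780000 to 29130000 per library. After thinning to equal depth, genes with at least 1 fragment numbered 11350 in NTC 1 and 11568 in NTC 3, against 13979 to 15161 in the other 4 libraries, so results are also given without these NTC libraries. The summed FPKM of 6 core markers of conventional dendritic cells was 52858 to 67082 in NTC and 43435.5 to 52284 in Gli2CA. They include the MHC class II genes H2-Ab1, Cd74 and Ciita, which are not particular to dendritic cells, so the sum does not show cell identity. The summed FPKM of 8 macrophage markers was 6366 to 9003 in NTC and 4671 to 9194 in Gli2CA. NTC 2 had a summed 1492 FPKM of 5 fibroblast and endothelial markers, against 0.271 to 39.9 in the other libraries.

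The genes for the immune catalytic subunits and for PA28 all had the lower mean in the Gli2CA group, and none of the differences passed the test. With NTC 1 and NTC 3 both left out, an alternative added after seeing the data, their median log2 difference went from -0.51 to -0.20, and Psmb10 changed sign. The only control is then NTC 2, the library with a summed 1492 FPKM of fibroblast and endothelial markers. Psmb8, Psmb9, Psme1 and Psme2 then stood at -0.24, -0.20, -0.31 and -0.057. In bulk samples fewer cells of a type and less RNA per cell cannot be told apart. With limma on log2(FPKM + 1) and Benjamini-Hochberg adjustment over 12266 genes, 0 of the 46 tested proteasome genes passed at 0.05, beside 0.0% of all genes, and their smallest adjusted p was 0.31. At an unadjusted p under 0.05, 5 members were lower and 1 higher in Gli2CA, 6 in all, against 0 with no variance trend and 1 with NTC 1 and NTC 3 both left out. That is 10.9% and 2.17% of the 46, where the same rule took 2.81% of all genes as lower and 7.82% as higher. The 3 Gli2CA libraries lay wholly below the NTC libraries in 3 members and wholly above in 4, or 6.52% and 8.7%, against 5.79% and 10.9% of all genes. The counts without overlap were thus near those of all genes. Of the 46 members, 20 had the higher mean in Gli2CA and 26 the lower, where 59.7% of all genes tested had the higher. The median log2 difference, Gli2CA minus NTC, was -0.14 over the 46 members and 0.25 over all genes tested, and 37 of the 46 lay below that 0.25. The median of all genes ranged from 0.083 without NTC 1 to 0.49 without NTC 2 and was -0.034 after quantile normalization, so a place relative to it depends on these settings. Log2 differences below are on the log2(FPKM + 1) scale.

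Psmb8 replaces Psmb5 in the immunoproteasome and lies in the MHC region of chromosome 17, at 34197721 to 34201454 (GRCm38). Its level was 1375, 869.6 and 974 FPKM in NTC 1, NTC 2 and NTC 3 and 655, 742 and 824 FPKM in Gli2CA 1, Gli2CA 2 and Gli2CA 3. The groups did not overlap, but NTC 2 stood close to the highest Gli2CA library. The means were 1073 ± 267 and 740.3 ± 84.7 FPKM (SD, n = 3 each), or -0.51 ± 0.21 in log2 (limma, SE, adjusted p = 0.443), and the log2 difference was -0.32 without NTC 1.

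Psmb9, which replaces Psmb6, had 673, 597 and 766 FPKM in the NTC libraries and 462, 465 and 648 in the Gli2CA libraries. Gli2CA 3 reached the NTC range and the other Gli2CA libraries stayed below it. The log2 difference was -0.38 ± 0.21 (limma, SE, adjusted p = 0.529). Psmb10, which replaces Psmb7, had 799.9, 449 and 874 FPKM in NTC and 432, 438 and 572 in Gli2CA. Here NTC 2 lay among the Gli2CA libraries, and NTC 1 and NTC 3 stood above all of them. The log2 difference was -0.51 ± 0.28 (limma, SE, adjusted p = 0.53), and it was -0.33 without NTC 3 and 0.086 with NTC 1 and NTC 3 both left out.

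The PA28 activator genes were the 2 members with the highest mean FPKM in both groups. By recovered fragments Psmb8 stood above both in NTC 1 and NTC 2, at 31069 and 29159, and below both in NTC 3, at 27131. In NTC 1 Psme1 had 24316 fragments and Psme2 28045. Psme1, the alpha subunit, had 1594, 1106 and 1634 FPKM in NTC and 758, 872 and 1081 in Gli2CA. The groups did not overlap, with NTC 2 again the NTC library nearest to Gli2CA. The means were 1444 ± 294 and 904 ± 164 FPKM (SD, n = 3 each), or -0.67 ± 0.21 in log2 (limma, SE, adjusted p = 0.31), which was the smallest p among the members. Psme2, the beta subunit, had 2428, 1430.5 and 2359 FPKM in NTC and 1264, 1256 and 1636 in Gli2CA, or -0.55 ± 0.23 in log2 (limma, SE, adjusted p = 0.445). NTC 2 lay within the Gli2CA range. Psme2b, a near-identical copy, was listed at 71.7 to 141 FPKM, and the counting could split reads between the copies, so both values are uncertain. The Psme2 to Psme1 ratio was 1.29 to 1.52 in NTC and 1.44 to 1.67 in Gli2CA.

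The 3 constitutive catalytic genes had 1 higher and 2 lower means in Gli2CA, all with overlapping groups. Psmb5, the chymotrypsin-like site, had 224, 265 and 216 FPKM in NTC and 261, 271 and 234 in Gli2CA. NTC 2 stood among the Gli2CA libraries. Its log2 difference was 0.12 ± 0.22 (limma, SE, adjusted p = 0.847), and it became -0.054 with NTC 1 and NTC 3 both left out. Psmb6, the caspase-like site, had 730.2, 532 and 637 FPKM in NTC and 542, 446 and 561 in Gli2CA, or -0.29 ± 0.20 in log2 (limma, SE, adjusted p = 0.629). Its groups overlapped through NTC 2, and the difference was -0.18 without NTC 1 and -0.049 with NTC 1 and NTC 3 both left out. Psmb7, the trypsin-like site, was the lowest of the 6 catalytic genes at 57.7, 38.6 and 63.3 FPKM in NTC and 43.1, 45.8 and 41.7 in Gli2CA. Its log2 difference of -0.25 ± 0.38 (limma, SE, adjusted p = 0.821) was -0.12 without NTC 3 and became 0.17 with NTC 1 and NTC 3 both left out. Exons of Nek6 on the other strand overlap Psmb7, and exons of Tap1 overlap Psmb9, and whether the counting used strand is not given in the sources used here.

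**Figure D1:**
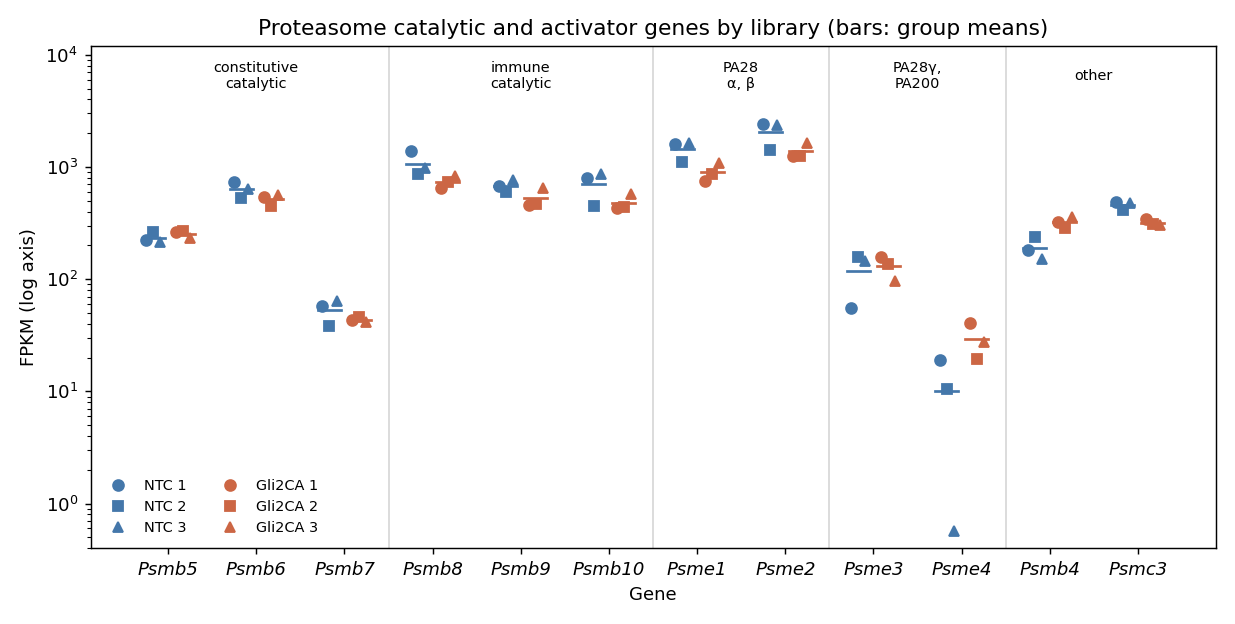
FPKM (log axis) of 12 proteasome genes in each library, NTC in blue and Gli2CA in orange, with symbols for the library number and a bar for each group mean. Psmb8 and Psme1 lie lower in the 3 Gli2CA libraries without overlap, NTC 2 lies nearest to Gli2CA in each of Psmb8, Psmb9, Psmb10, Psme1 and Psme2, and Psme4 stands at 0.572 FPKM in NTC 3.

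Ratios taken within a library do not depend on how libraries are scaled. A difference between libraries by transcript length, described below, does not cancel in a ratio of genes of unlike length. The summed FPKM of Psmb8, Psmb9 and Psmb10 was 2.82, 2.29 and 2.85 times that of Psmb5, Psmb6 and Psmb7 in NTC 1, NTC 2 and NTC 3 and 1.83, 2.16 and 2.44 times in Gli2CA 1, Gli2CA 2 and Gli2CA 3. Immune genes therefore made up 72.5 ± 2.47% of the summed catalytic FPKM in NTC and 68.0 ± 3.16% in Gli2CA (SD, n = 3 each), with NTC 2, at 69.6%, below Gli2CA 3, at 71.0%. The log2 of the ratio was 1.40 ± 0.18 in NTC and 1.09 ± 0.21 in Gli2CA (SD, n = 3 each), lower by a mean of 0.31 against a pooled SD of 0.19. With NTC 1 and NTC 3 both left out, that difference was -0.11. No p is given for a score over chosen members, and 3 libraries against 3 cannot go below an exact p of 0.1.

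The 3 replacement pairs are given one by one. The ratio of Psmb8 to Psmb5 was 6.14, 3.28 and 4.51 in NTC and 2.51, 2.73 and 3.52 in Gli2CA, so NTC 2 lay within the Gli2CA range. The ratio of Psmb9 to Psmb6 was 0.922, 1.12 and 1.20 in NTC and 0.852, 1.04 and 1.16 in Gli2CA, with much the same range in both groups. Psmb10 stood at 13.9, 11.6 and 13.8 times Psmb7 in NTC and at 10.0, 9.57 and 13.7 times in Gli2CA. Psmb9 and Psmb6 thus had similar levels per length, while Psmb8 and Psmb10 stood above their partners in all 6 libraries. The size of these ratios depends on the annotated lengths, as NTC 1 held 12002 fragments of Psmb10 and 2171 of Psmb7.

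**Figure D2:**
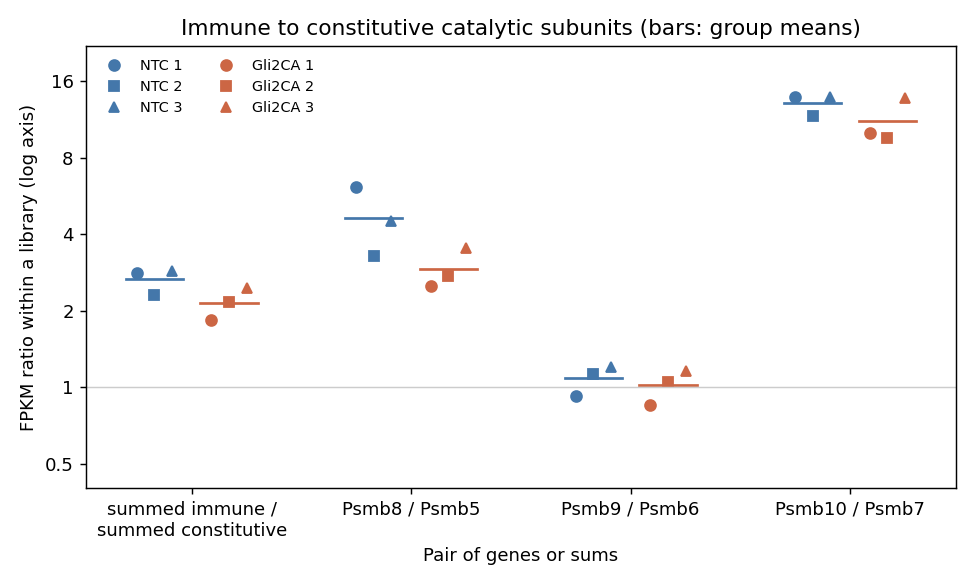
FPKM ratios within each library (log axis), for the summed immune over the summed constitutive catalytic genes and for the 3 replacement pairs, NTC in blue and Gli2CA in orange, with bars for group means. The summed ratio averages 2.65 in NTC and 2.14 in Gli2CA with overlap between NTC 2 and Gli2CA 3, and Psmb9 to Psmb6 stays near 1 in all 6 libraries.

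Of the other activators, Psme3 encodes PA28 gamma, a nuclear form that is not part of the interferon-induced pair. Its level was 54.9, 157 and 145 FPKM in NTC and 156, 137 and 96.9 in Gli2CA. NTC 1 stood apart, and the log2 difference of 0.24 ± 0.45 (limma, SE, adjusted p = 0.854) was -0.24 without it and -0.30 with NTC 1 and NTC 3 both left out. Psme4, which encodes PA200, a large activator that binds the core in the nucleus, had 18.9, 10.6 and 0.572 FPKM in NTC and 40.8, 19.3 and 27.6 in Gli2CA. The groups did not overlap, and the value in NTC 3 rested on 19 fragments. The log2 difference was 2.02 ± 0.99 (limma, SE, adjusted p = 0.499), and it was 0.93 without NTC 3.

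The structural 20S genes held the member with the second smallest p. Psmb4, a beta subunit without a catalytic site, lies on chromosome 3 at 94884093 to 94886961 (GRCm38) and had 181, 237 and 152 FPKM in NTC and 326, 286 and 359.7 in Gli2CA. Each Gli2CA library was above each NTC library. The means were 189.8 ± 43.1 and 324 ± 36.7 FPKM (SD, n = 3 each), or 0.79 ± 0.25 in log2 (limma, SE, adjusted p = 0.313), and the log2 difference was 0.44 with NTC 1 and NTC 3 both left out. Psmb1, Psmb2 and Psmb3, the other structural beta genes, had log2 differences of -0.22, 0.011 and -0.14 with overlapping groups. The 7 alpha ring genes, Psma1 to Psma7, had 4 higher and 3 lower means, a median log2 difference of 0.081 and a range of -0.29 to 0.33. Psma1 was the only one of the 7 without overlap, at 342, 431 and 403 FPKM in NTC and 496, 479.9 and 442 in Gli2CA (log2 difference 0.27 ± 0.19 by limma, SE, adjusted p = 0.633). Its difference was 0.18 without NTC 1 and 0.13 with NTC 1 and NTC 3 both left out. The highest of them in both groups was Psma7, at 943 ± 259.6 FPKM in NTC and 751 ± 46.9 in Gli2CA (SD, n = 3 each). The NTC means of the alpha ring and structural beta genes spread from 189.8 FPKM for Psmb4 to 943 FPKM for Psma7.

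The cap genes had differences on both sides of 0. Of 17 cap subunit genes, 10 had the higher and 7 the lower mean in Gli2CA, a share near the 59.7% of all genes tested with the higher mean. Their median log2 difference was 0.051. It changed sign without NTC 1, NTC 2 or Gli2CA 1, to -0.11, -0.040 and -0.027. Among the 6 ATPases, which unfold substrates and thread them into the core, Psmc3 had 492, 410.2 and 479 FPKM in NTC and 341, 309 and 301 in Gli2CA. Its groups did not overlap and its Gli2CA libraries were close together. The log2 difference was -0.53 ± 0.19 (limma, SE, adjusted p = 0.375). Exons of Slc39a13 on the other strand overlap Psmc3. Psmc1, named after its values were seen as the other ATPase at an unadjusted p under 0.05, had 538, 286 and 359 FPKM in NTC and 301, 213 and 195 in Gli2CA, with NTC 2 inside the Gli2CA range. Psmc2, Psmc4, Psmc5 and Psmc6 had log2 differences of -0.17 to 0.42.

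Of the other base subunits, Psmd1 and Psmd2, the scaffolds that hold ubiquitin receptors, and Psmd4, itself a ubiquitin receptor, had log2 differences of 0.34, 0.23 and -0.32, all with overlap. The 8 lid genes ranged from -0.45 for Psmd13 to 1.34 for Psmd3, with a median of 0.16. Psmd12 was the only lid gene without overlap, at 44.4, 63.4 and 29.1 FPKM in NTC and 94.7, 66.4 and 68.6 in Gli2CA (log2 difference 0.78 ± 0.41 by limma, SE, adjusted p = 0.519). Its difference was 0.50 without NTC 3 and 0.25 with NTC 1 and NTC 3 both left out. Psmd14, the deubiquitinase of the lid, had 113, 245 and 376 FPKM in NTC and 372, 231 and 262 in Gli2CA, an NTC spread wider than the difference of the means. The difference of Psmd3 rested on NTC 1, where it stood at 5.15 FPKM against 57.2 and 117 in the other NTC libraries and 71.1 to 105 in Gli2CA, and it is named for that after its values were seen. Within a library, the mean log2 level of the cap genes minus that of the 3 constitutive catalytic genes was -0.68, -0.11 and -0.17 in NTC and 0.05, -0.17 and -0.16 in Gli2CA, so NTC 1 stood apart and the rest overlapped.

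**Figure D3:**
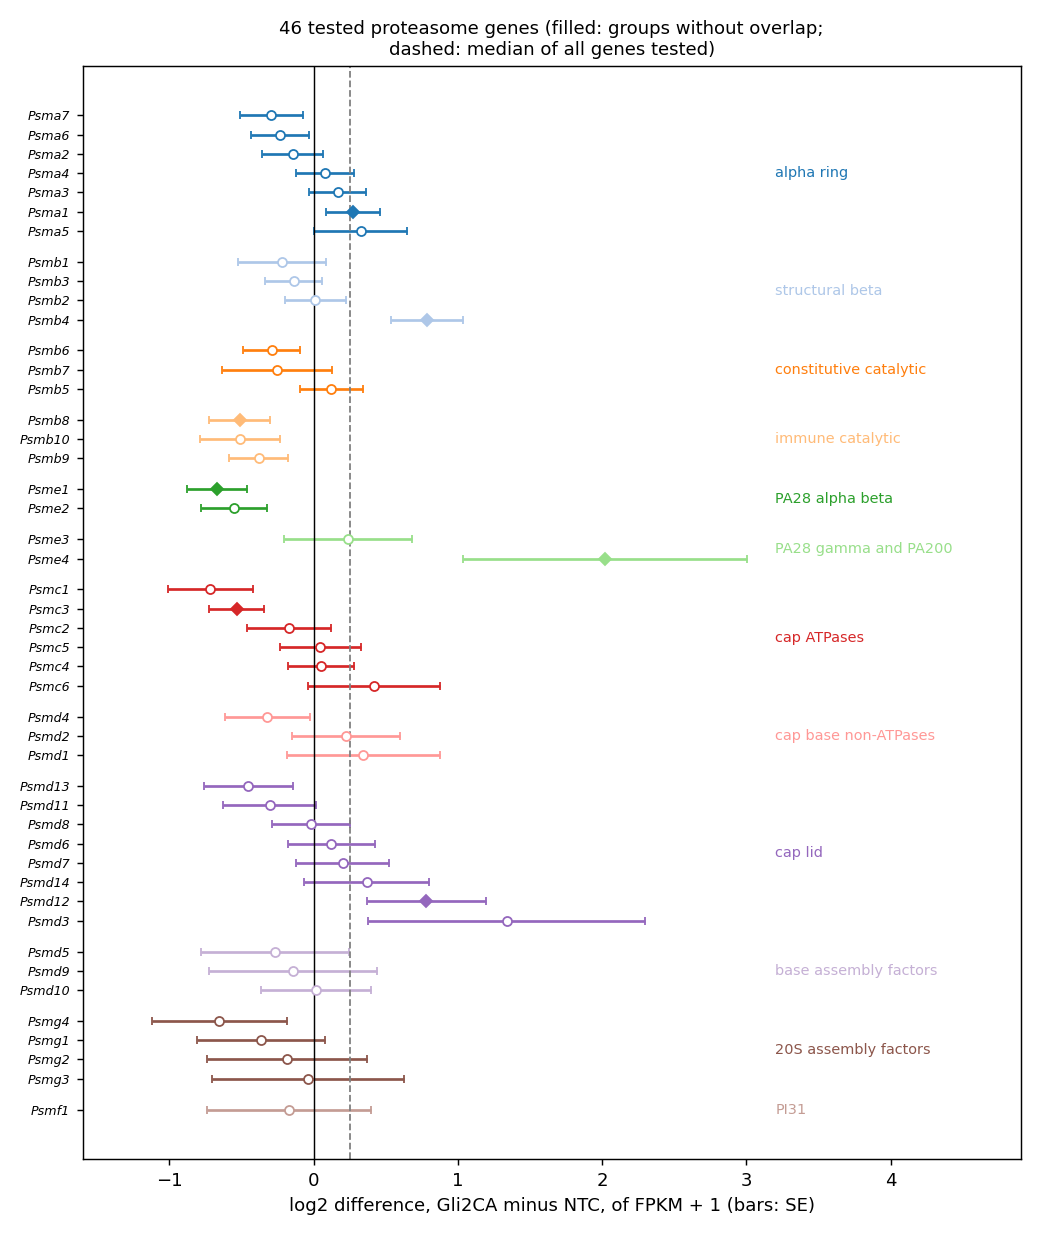
Log2 difference, Gli2CA minus NTC, of each of the 46 tested proteasome genes with its SE, grouped by role; filled symbols mark genes whose groups did not overlap and the dashed line is the median of all genes tested, 0.25. The 5 immune catalytic and PA28 alpha and beta genes all lie between -0.67 and -0.38, while the cap genes lie on both sides of 0.

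The genes that build the particle had lower means or small differences. All 4 assembly chaperones of the core, Psmg1 to Psmg4, had the lower mean in Gli2CA, with overlapping groups in each. Their log2 differences ran from -0.65 for Psmg4 to -0.037 for Psmg3. The lower mean of Psmg3 rested on NTC 1, at 50.8 FPKM against 13.5 and 12.3 in NTC 2 and NTC 3 and 17.4 to 24.1 in Gli2CA. Psmg4 had 206, 58.4 and 122 FPKM in NTC, with NTC 2 below every Gli2CA library. The base assembly factors Psmd5, Psmd9 and Psmd10 had log2 differences of -0.27, -0.14 and 0.015. Psmf1, which encodes the proteasome-binding protein PI31, had one of -0.17. The remaining members were below the filter. Psmb11, the thymus catalytic subunit, was listed at 0 in all 6 libraries, and Psma8, the testis alpha subunit, was listed at 0 in 5 libraries and at 1.04 FPKM in Gli2CA 3.

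As a whole the 48 genes took 1.92, 1.62 and 1.90% of the summed FPKM in NTC 1, NTC 2 and NTC 3 and 1.60, 1.49 and 1.64% in Gli2CA 1, Gli2CA 2 and Gli2CA 3. NTC 2 lay within the Gli2CA range and the other 2 NTC libraries stood above it. In the order of NTC means the first places went to Psme2, Psme1, Psmb8, Psma7, Psmb10, Psmb9 and Psmb6. In the Gli2CA order Psmb10 went from place 5 to place 9 and Psmb4 from place 26 to place 16.

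Across all genes the group difference varied with transcript length, and against NTC 2 alone it did not rise with length. Among genes tested with a mean transcript length up to 1000 bases, 2819 in all, the median log2 difference was -0.0086, and it was 0.19, 0.35, 0.43 and 0.44 in the successive ranges of 1000 to 1500, 1500 to 2000, 2000 to 3000 and over 3000 bases. In the same ranges NTC 2 exceeded the mean of NTC 1 and NTC 3 by a median of 0, 0.37, 0.64, 0.79 and 0.69, and the Gli2CA mean minus NTC 2 had medians of 0.0011, -0.13, -0.17, -0.18 and -0.13. Of the 46 members, 20 had a mean length up to 1000 bases, with a median log2 difference of -0.18, and 18 had one of 1000 to 1500, with a median of -0.0013. The 5 immune catalytic and PA28 genes have mean lengths of 615 to 1203 bases, and Psmb5 and Psmb6 of 761 and 777. Psmb7 is longer, at 2004.5 bases, against 799 for its partner Psmb10. For the 644 genes up to 1000 bases whose mean reached 100 FPKM the median was -0.13, and for the 512 such genes of 1000 to 1500 bases, the range of Psmb8 and Psmb9, it was -0.043. The part of transcript length in the members' differences was not tested.

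**Figure D4:**
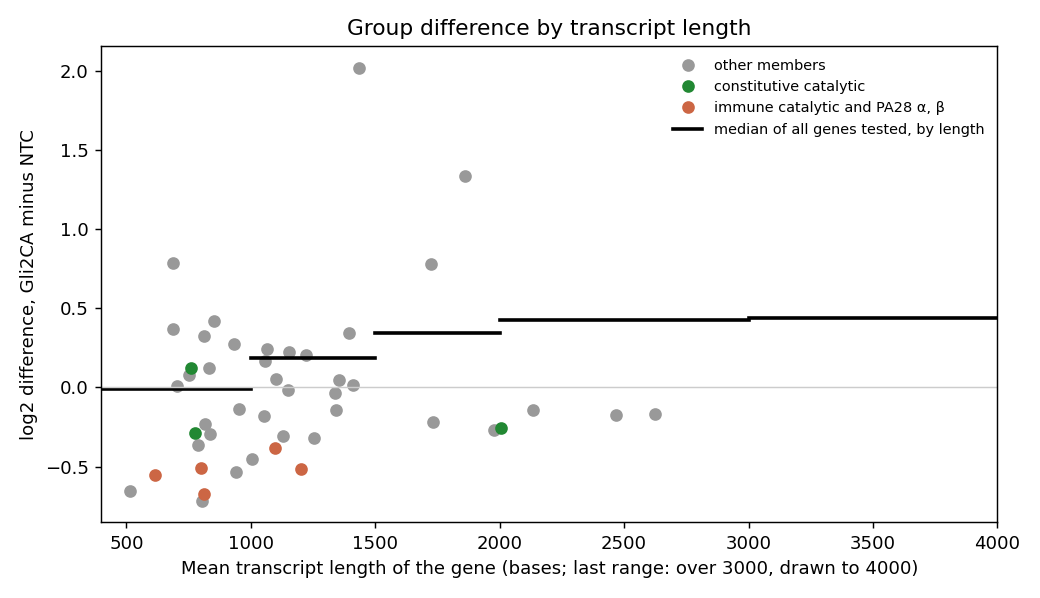
Log2 difference, Gli2CA minus NTC, of the 46 tested proteasome genes against their mean transcript length in bases, with black lines for the median of all genes tested in each range of length. The medians of all genes go from -0.0086 for the shortest to 0.44 for the longest genes, and the 5 immune catalytic and PA28 genes, in orange, lie below the lines of their own ranges.

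Cell type markers had differing means beside the immune subunits. All 10 markers of type 1 conventional dendritic cells, the cross-presenting subset, had the lower mean in Gli2CA (median -1.22 in log2). Of these, 8 were without overlap. Their summed FPKM was 1745 to 3186 in NTC and 1133 to 1264 in Gli2CA. Over all genes tested 59.7% had the higher mean, and 5.79% were lower without overlap. All 5 monocyte markers had the higher mean, with a median of 1.39 and a summed FPKM of 1537 to 2013 in NTC and 3203 to 4616 in Gli2CA. All 5 markers of mature dendritic cells had the lower mean, with a summed FPKM of 593 to 1203 in NTC and 361 to 600.3 in Gli2CA. The 4 T cell markers were lower too, with a summed FPKM of 775 to 1553 in NTC and 468 to 709 in Gli2CA. The 5 melanocyte markers summed to 0 in NTC and to 12.1 to 22.7 FPKM in Gli2CA, with Mlana, Tyrp1 and Dct at 0 in all libraries. The 3 NK cell markers summed to 15.2 to 41.4 FPKM in NTC and 70.3 to 98.8 in Gli2CA, without overlap, with 2 higher means and 1 lower. Of the type 2 conventional dendritic cell markers 4 of 5 had the lower mean, and of the core markers named above 5 of 6. Higher means were found for 6 of 8 macrophage, 3 of 4 plasmacytoid dendritic cell, 2 of 4 tested neutrophil, 2 of 2 tested B cell and 2 of 3 tested fibroblast and endothelial markers. None of these markers passed after adjustment over all genes, and outside the melanocyte list no marker was at 0 in every library. The part of cell composition in the proteasome results was not tested.

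Genes that act beside the proteasome in class I presentation went both ways. Tap1, the transporter subunit whose start faces that of Psmb9, had 194, 306 and 367 FPKM in NTC and 258, 293 and 269.9 in Gli2CA, or -0.031 ± 0.28 in log2 (limma, SE, adjusted p = 0.977). Across the 225 bases printed above, Psmb9 and Tap1 thus had log2 differences of -0.38 and -0.031. Their mean transcript lengths are 1096 and 2363 bases, in ranges where the medians of all genes were 0.19 and 0.43. The 2 differences are therefore not alike in what transcript length may add, which was not tested. NTC 1 was the lowest NTC library for Tap1 but not for Psmb9. Tap2, the other transporter subunit and neighbour of Psmb8, had 256, 218 and 302 FPKM in NTC and 187, 175 and 180.4 in Gli2CA, without overlap (log2 difference -0.50 ± 0.23 by limma, SE, adjusted p = 0.479). B2m, the class I light chain, had 3863, 4489 and 3877 FPKM in NTC and 5446, 6369.7 and 6263 in Gli2CA, above every NTC library (log2 difference 0.56 ± 0.12 by limma, SE, adjusted p = 0.195). The chaperone gene Canx and the loading factor gene Tapbp had log2 differences of 0.99 and 0.22. Of the 11 class I loading genes, 6 had the higher and 5 the lower mean, none passed after adjustment, and the median was 0.20.

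The list of regulators of proteasome genes had 9 of 10 members with the higher mean and a median log2 difference of 0.55, with none past adjustment. Over all genes tested 59.7% had the higher mean, and the median was 0.25. The summed FPKM of the list overlapped, at 861 to 1137 in NTC and 978 to 1023 in Gli2CA. Rela stood at 1.41 FPKM in NTC 1, against 65.4 and 37.6 in NTC 2 and NTC 3. Irf1, the interferon gamma-induced factor that activates Psmb9 and Tap1, was the only listed regulator with the lower mean. It had 503, 621 and 631 FPKM in NTC and 424, 463 and 406 in Gli2CA. Its groups did not overlap (log2 difference -0.43 ± 0.18 by limma, SE, adjusted p = 0.459). Stat2, a factor of the type I interferon signal, had 51.4, 94.1 and 52.6 FPKM in NTC and 135, 125 and 157 in Gli2CA, without overlap (log2 difference 1.11 ± 0.35 by limma, SE, adjusted p = 0.303). Nlrc5, the class I transactivator, had a log2 difference of 0.14 ± 0.62 (SE). Nfe2l1, the factor that restores proteasome genes after inhibition, had 0.323, 32.6 and 1.17 FPKM in NTC and 24.7, 66.2 and 10.6 in Gli2CA, with NTC 2 inside the Gli2CA range. The 9 genes listed as interferon gamma markers had 5 higher and 4 lower means and a median of 0.18. They include the receptor genes Ifngr1 and Ifngr2, with log2 differences of 0.67 ± 0.33 and 1.15 ± 0.83 (limma, SE) and overlapping groups. Ifngr2 stood at 7.87 FPKM in NTC 1, against 61.3 and 82.6 in NTC 2 and NTC 3. Of the others, the chemokine gene Cxcl9 was at -0.36, Socs1 at -1.35 ± 0.91 (limma, SE), Gbp2 at -0.076 and Gbp4 at -0.11. Socs1 had 1.98, 5.25 and 27.2 FPKM in Gli2CA, so Gli2CA 3 stood above every NTC library. Gbp3, Irgm1 and Igtp were at 0.23, 0.18 and 0.21.

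Among 13 other subunits and partners, 5 had the higher and 8 the lower mean, with a median log2 difference of -0.13. Pomp, the chaperone that matures the core and favours the immune subunits, had 653, 324 and 459 FPKM in NTC and 295, 311 and 308 in Gli2CA, below every NTC library (log2 difference -0.59 ± 0.27 by limma, SE, adjusted p = 0.479). Ecpas, an adaptor that holds the core and the cap together, had 6.59, 5.97 and 3.92 FPKM in NTC and 24.7, 16.7 and 19.5 in Gli2CA (log2 difference 1.72 ± 0.64 by limma, SE, adjusted p = 0.396). Of 10 tested ubiquitin and conjugation genes, 7 had the higher mean, with a median of 0.40, beside 59.7% and 0.25 for all genes tested. Isg15, the interferon-induced ubiquitin-like modifier, had a log2 difference of 1.13 without overlap, and Ubd, an interferon-induced modifier that targets proteins to the proteasome, was listed at 0 in all 6 libraries.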

How the data were processed

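The values are FPKM as deposited by the authors in 1 table, and its 6 columns were matched to samples by the sample descriptions. The sources used here do not give the aligner, the counting tool or the genome build. Gene symbols were looked up by gene ID, and coordinates and transcript lengths came from GENCODE M21 on GRCm38. The members and gene lists were chosen with earlier results of these data known. The test was limma 3.58.1 (R 4.3.3) on log2(FPKM + 1), group as the only term, with a variance trend, two-sided, adjusted by Benjamini-Hochberg over 12266 genes (mean FPKM of 1 or more). The log2 values were computed here from the deposited FPKM. The test was also run on simulated data, with results not reported here, and nothing is drawn from that run. FPKM times mean transcript length came within 0.05 of a whole number of fragments, at 1 step size for each library, for 96.6 to 98.0% of low values, which gave the fragment numbers. The shallowest tested value among members rested on 19 fragments. Genes given in full were the catalytic and PA28 genes, the 4 members with the smallest p in each direction, and from the related lists Tap1, Tap2, Tapbp, Nlrc5, Irf1, Pomp, Nfe2l1 and the 2 of each with the smallest p, except that some genes this rule names are not reported here. Alternatives were other pseudocounts, filters, scalings and variance settings, replicate blocks, leaving out libraries and, chosen after seeing the data, voom on recovered fragments and leaving out NTC 1 and NTC 3 together.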

Additional observations from a re-analysis of the deposited data

How the results depend on the processing

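In each of the 18 other settings 0 members passed after adjustment, while 21 of all genes passed after quantile normalization and 6 without NTC 2. The 6 members at an unadjusted p under 0.05 became 3 with no filter, 3 with median-of-ratios scaling, 3 with voom on recovered fragments, 0 with no variance trend, 0 with a replicate block by description number, 2 to 10 on leaving out 1 library and 1 without both NTC 1 and NTC 3. Only NTC 1 with Gli2CA 1, and NTC 2 with Gli2CA 3, share a description number. The block by description number therefore takes the group difference from these pairs alone. With it, 393 of all genes were at an unadjusted p under 0.05 by limma, against 1304 without it. The numbers in the titles pair no samples by the labels. Deviations from the group means correlated at -0.042, -0.0018 and -0.0066 for equal title numbers. These values show no shared deviation by title number, but whether samples shared a batch was not tested. The replicate block by title number left 4 members at an unadjusted p under 0.05. The median of all genes, 0.25, was -0.034 after quantile normalization and -0.10 with NTC 1 and NTC 3 both left out. Relative to it, the 5 immune and PA28 genes stood at -0.76, at -0.52 after quantile normalization, at -1.29 without NTC 2 and at -0.10 without both NTC 1 and NTC 3. Leaving out both keeps only NTC 2, the library with the fibroblast and endothelial signal, and takes it to vary as the Gli2CA libraries do. Without both, the median of the 46 members was 0.028, Psmb5 stood at -0.054, Psmb7 at 0.17, Psmb10 at 0.086 and Psme3 at -0.30. The log2 ratio of immune to constitutive genes then differed by -0.11, against a range of -0.41 to -0.20 on leaving out 1 library. The cap median was -0.11, -0.040 and -0.027 without NTC 1, NTC 2 and Gli2CA 1, within a range of -0.11 to 0.10 on leaving out 1 library, and Psme3 ranged from -0.24 without NTC 1 to 0.51 without NTC 2. Psmb8, Psmb9, Psme1, Psme2, Psmb4 and Psmc3 kept their direction in all 18, and so did Psmb6, Psme4, Psmd12 and Psma1. Changing only the filter, the variance trend or the title block cannot change a gene's log2 difference, so those settings say nothing on its direction. The cause of the differences was not tested.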
